A study of Mus musculus with 29 samples.

Results

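Genes commonly used to mark microglia, the resident macrophages of the brain, were followed in the striatum of a mouse knock-in model of Huntington's disease. The 9 genes were Cx3cr1, P2ry12, Tmem119, Csf1r, Aif1, Trem2, Tyrobp, Itgam and Cd68. Members were the probe sets annotated with that symbol alone, and each of the 9 genes had 1 such probe set, so 9 of the 19938 genes tested belong to the set. HdhQ150 mice carry a long CAG repeat placed in their own huntingtin gene, Htt, and littermates without it were the wild-type controls. All mice came from a cross that the labels give as 129/Ola x C57BL6/J. The tissue was the caudate nucleus, a division of the striatum, taken from each mouse once, at 6, 12 or 18 months of age. The 6-month groups held 5 wild-type and 5 HdhQ150 mice, the 12-month groups 5 and 6, and the 18-month groups 4 and 4. Whether the HdhQ150 mice carried 1 or 2 copies of the knock-in allele is not given in the sources used here. A knock-in of this kind is carried by every cell, neurons and microglia alike, under the gene's own promoter.

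Microglia survey the brain with fine processes, remove debris and synapses, and change their gene expression when neurons are damaged. Cx3cr1, P2ry12 and Tmem119 are typical of microglia in their surveying state. Csf1r passes on the survival signal on which the cells depend, Trem2 and Tyrobp form a receptor and its signalling adaptor, Aif1 and Itgam are general markers of the lineage, and Cd68 is a protein of the lysosome. The deposited values are log2 levels, in which a difference of 1 is a doubling, and levels of different probe sets cannot be ranked against each other. The RNA came from whole tissue, in which fewer cells of a type and less RNA per cell cannot be told apart.

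All 29 arrays had similar medians, from 6.91 to 7.05. The arrays came from 23 females and 6 males by the labels, and both 18-month groups held females alone. A wild-type male of 12 months, mouse WT-454, stood apart from its group, with a mean correlation of 0.945 to the other 4 arrays where those had 0.975 to 0.978. An HdhQ150 mouse of 6 months, mouse 1023, is labelled female but had Xist at 5.95 and the Y-linked Eif2s3y at 8.3. The labelled males had 5.5 to 6.13 and 7.04 to 8.42 for these genes. The other labelled females had Xist of at least 11.11 and Eif2s3y of at most 4.05. Mouse 1023 thus reads as male by these genes. It was kept as labelled, so the fits of labelled females alone include it. Results that rest on either mouse are given below with and without it. The labels name no batch of dissection, labelling or scanning. The markers of striatal projection neurons, the main cell type of the tissue, averaged 10.24 to 11.46 in the 6 groups. Whether these or any other genes named here were above background was not tested. The markers of border macrophages and monocytes averaged 5.59 to 5.72, and those of lymphocytes and neutrophils 6.07 to 6.30.

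The sequence table held 6 of the 9 members, which leaves out Tmem119, Csf1r and Tyrobp. Promoter sequence is given for Trem2 and P2ry12, the genes with an entry that passed a test below, and for Itgam, whose groups did not overlap at 6 months but which passed no test, as the 250 bases before the start of the gene, from RefSeq in build GRCm38.p6. Spi1 encodes PU.1, the transcription factor that defines the macrophage lineage, and its core motif GAGGAA was searched on both strands, the reverse complement being TTCCTC. Capitals mark matches. The stretches are chr17:48346151-48346400 on the plus strand for Trem2, chr3:59262986-59263235 on the minus strand for P2ry12 and chr7:128062390-128062639 on the plus strand for Itgam.
Trem2: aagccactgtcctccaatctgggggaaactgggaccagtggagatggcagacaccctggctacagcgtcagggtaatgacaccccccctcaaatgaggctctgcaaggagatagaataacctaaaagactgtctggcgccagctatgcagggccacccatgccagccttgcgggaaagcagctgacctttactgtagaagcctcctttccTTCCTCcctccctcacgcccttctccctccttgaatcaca
P2ry12: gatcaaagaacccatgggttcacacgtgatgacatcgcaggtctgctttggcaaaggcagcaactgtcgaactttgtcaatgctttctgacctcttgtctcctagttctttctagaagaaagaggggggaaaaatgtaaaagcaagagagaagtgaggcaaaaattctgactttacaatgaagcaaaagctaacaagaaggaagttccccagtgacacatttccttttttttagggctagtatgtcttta
Itgam: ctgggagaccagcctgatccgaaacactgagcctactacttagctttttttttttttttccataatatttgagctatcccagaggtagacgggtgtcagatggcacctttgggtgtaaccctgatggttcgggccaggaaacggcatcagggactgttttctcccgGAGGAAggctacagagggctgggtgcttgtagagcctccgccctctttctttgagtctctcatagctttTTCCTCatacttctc
The Trem2 stretch held 1 match, on the reverse strand, starting 40 bases before the gene. The Itgam stretch held 2, starting 84 and 15 bases before the gene on opposite strands. P2ry12 had none of these letters in the window. Of the 6 members with an entry, 4 held a match (Aif1, Trem2, Itgam and Cd68), beside 23.3% of 32851 promoters of the same length. A match is a description of the letters and does not show binding.

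Levels of the 9 genes lay close together across the 6 groups, as the plot of each gene by mouse shows. Among the genes of the surveying state, mean Cx3cr1, the receptor for the neuronal ligand fractalkine, ran from 8.68 ± 0.09 (SD, n = 5) in HdhQ150 mice of 6 months to 8.80 ± 0.10 (SD, n = 5) in wild-type mice of 12 months. P2ry12, a receptor for nucleotides that guides microglial processes, was lowest in wild-type mice of 12 months at 7.09 ± 0.12 (SD, n = 5) and highest in HdhQ150 mice of 6 months at 7.39 ± 0.13 (SD, n = 5). Tmem119, a membrane protein of resident microglia, went from 7.98 ± 0.11 (SD, n = 6) in HdhQ150 mice of 12 months to 8.16 ± 0.07 (SD, n = 5) in HdhQ150 mice of 6 months. For both P2ry12 and Tmem119 the highest group was thus the youngest HdhQ150 group.

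Csf1r ranged from 8.61 ± 0.10 (SD, n = 6) in HdhQ150 mice of 12 months to 8.89 ± 0.02 (SD, n = 4) in those of 18 months. Trem2, a receptor for lipids and debris, was lowest in wild-type mice of 6 months at 7.82 ± 0.12 (SD, n = 5) and highest in wild-type mice of 18 months at 8.17 ± 0.19 (SD, n = 4). Tyrobp, the adaptor through which Trem2 signals, stood at 8.15 ± 0.14 (SD, n = 6) in HdhQ150 mice of 12 months and at 8.36 ± 0.28 (SD, n = 4) in those of 18 months. Trem2 had its lowest mean at the youngest wild-type age, whereas Tyrobp had its lowest at 12 months.

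Aif1, which encodes the actin-binding protein IBA1, ran from 6.30 ± 0.30 (SD, n = 5) in wild-type mice of 6 months to 6.50 ± 0.19 (SD, n = 4) in those of 18 months. Itgam, a chain of complement receptor 3, was lowest in wild-type mice of 6 months at 6.83 ± 0.07 (SD, n = 5) and highest in HdhQ150 mice of 18 months at 7.02 ± 0.08 (SD, n = 4). Cd68 went the other way, from 8.36 ± 0.11 (SD, n = 5) in wild-type mice of 6 months down to 8.17 ± 0.09 (SD, n = 6) in HdhQ150 mice of 12 months. When the groups were put in order for each gene, the ranges of neighbouring groups overlapped in 44 of 45 pairs. The exception was Csf1r, whose 18-month HdhQ150 mice all lay above the group next to them in rank, the HdhQ150 mice of 6 months.

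**Figure D1:**
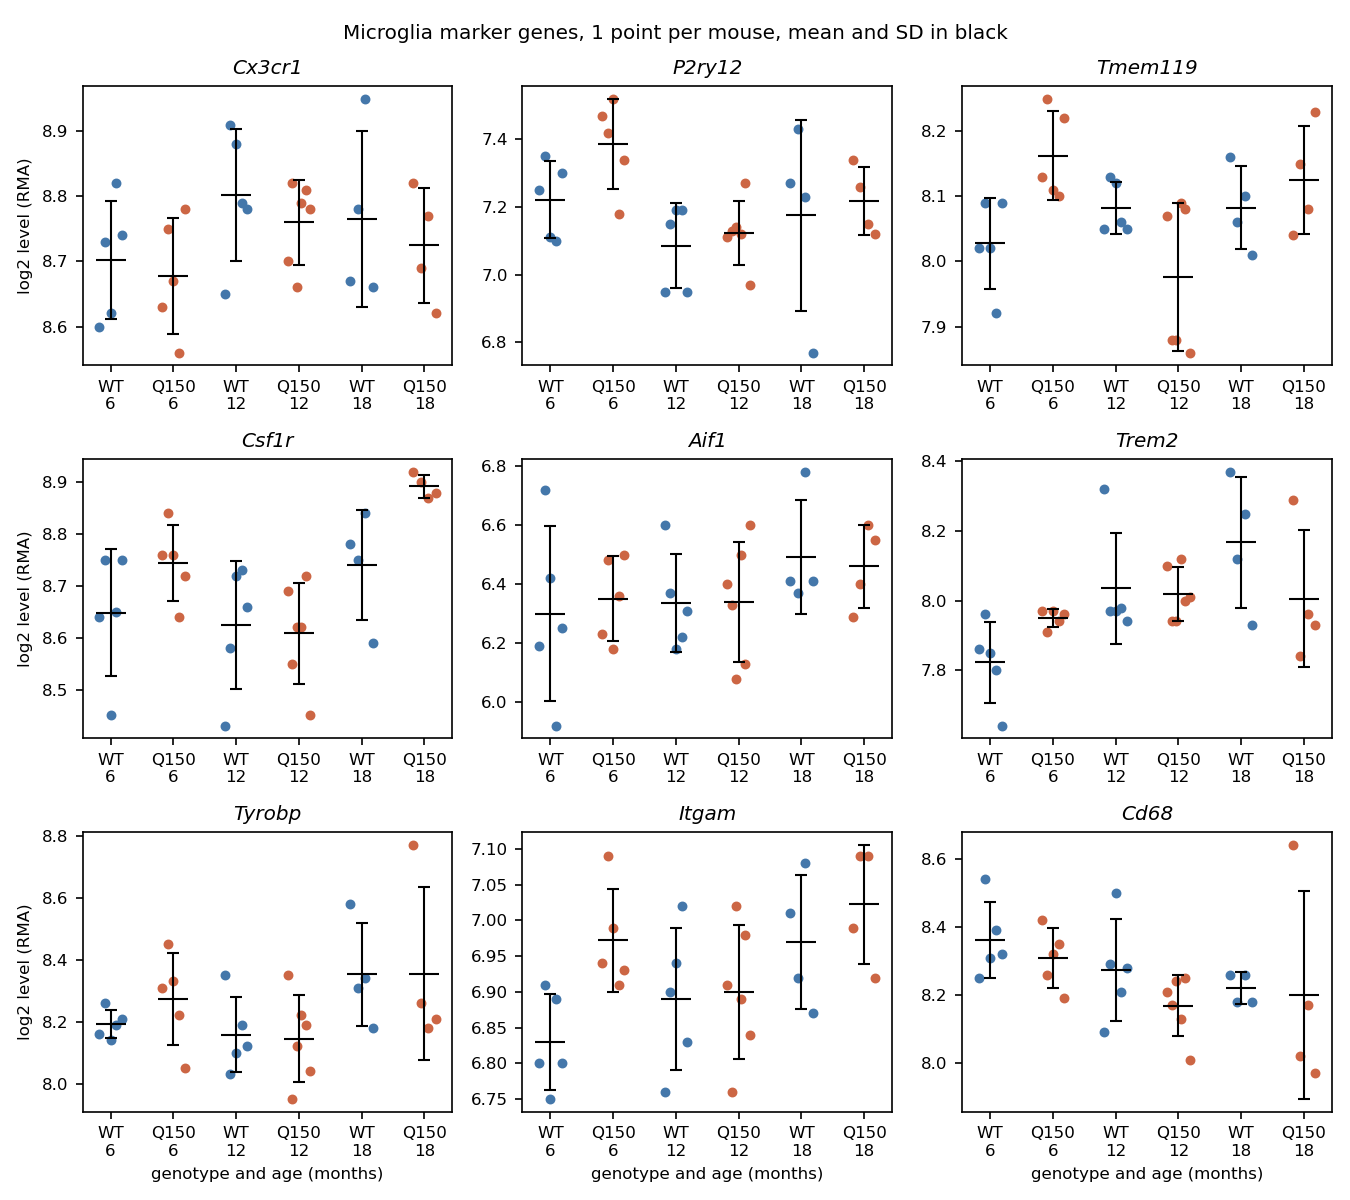
Log2 level (vertical axis, a separate scale for each gene) of the 9 microglia marker genes in each of 29 mice, by genotype and age in months (WT is wild type, Q150 is HdhQ150), with the group mean and SD in black. Most groups overlap; the 18-month HdhQ150 mice stand between 8.87 and 8.92 for Csf1r, and 1 wild-type mouse of 12 months stands at 8.32 for Trem2.

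The first question was whether HdhQ150 and wild-type mice differed in these genes at any age. At 6 months 7 of the 9 genes were on the higher side in HdhQ150 mice, with a median difference of 0.101 on the log2 scale beside 0.006 over all genes tested. None of the 9 passed the threshold, an adjusted p of 0.05 over all genes, which 0.0251% of all genes passed. An unadjusted p under 0.05 was reached by 2 of the 9, beside 13.7% of all genes.

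Those 2 genes were Tmem119 and Itgam. Tmem119 read 8.02, 8.09, 8.02, 7.92 and 8.09 in the wild-type mice of 6 months, and 8.13, 8.25, 8.11, 8.10 and 8.22 in the HdhQ150 mice. Every HdhQ150 mouse was above every wild-type mouse. The difference was 0.14 (SE 0.0584, 95% interval 0.02 to 0.26), a fold of 1.1, with an adjusted p of 0.29 by limma. Itgam read 6.80, 6.91, 6.75, 6.89 and 6.80 in wild type against 6.94, 7.09, 6.99, 6.91 and 6.93 in HdhQ150 mice. Its groups met at 6.91 to 2 decimals, and the unrounded values did not overlap. The Itgam difference was 0.14 (SE 0.0641, 95% interval 0.00 to 0.27) with an adjusted p of 0.346. Groups that did not overlap, higher in HdhQ150 mice, were found for 1.84% of all genes at this age.

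P2ry12 had a larger difference at 6 months, 0.17, with more spread (SE 0.0934, adjusted p 0.431). Its wild-type mice lay between 7.10 and 7.35 and its HdhQ150 mice between 7.18 and 7.52, so the groups overlapped. Trem2 differed by 0.15 (SE 0.0816, adjusted p 0.421), with wild-type mice at 7.86, 7.96, 7.85, 7.80 and 7.64 and HdhQ150 mice at 7.97, 7.91, 7.97, 7.94 and 7.96. Here 1 wild-type mouse reached into the narrow HdhQ150 range. Csf1r and Tyrobp each differed by 0.10 and Aif1 by 0.09, and Cx3cr1 and Cd68 had differences of -0.03 and -0.06. Without mice WT-454 and 1023 868 of the 19938 genes passed at 6 months, against 5 with them, yet none of the 9 members did; Itgam then had a difference of 0.15 and an adjusted p of 0.183.

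At 12 months 7 of the 9 genes were on the lower side in HdhQ150 mice, by small amounts. Markers of cortical excitatory neurons, given below, were also on the lower side at this age. The median difference was -0.026, and no member passed the threshold, which 0.938% of all genes passed. No member had an unadjusted p under 0.05 either, beside 8.98% of all genes. Tmem119 had the greatest size of difference, -0.11 (SE 0.0555, 95% interval -0.22 to 0.01, adjusted p 0.611). The HdhQ150 mice of this age split by level, with 8.07, 8.09 and 8.08 in mice 451, 464 and 487 and 7.88, 7.88 and 7.86 in mice 453, 462 and 526. The wild-type mice lay between 8.05 and 8.13, over the upper of these clusters.

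At 18 months the members were spread around 0, with 5 on the higher and 4 on the lower side and a median of 0.002. Again no member passed, beside 0.135% of all genes, and 1 had an unadjusted p under 0.05, beside 5.81%. This was Csf1r, the receptor for the growth factors Csf1 and Il34. It read 8.78, 8.75, 8.84 and 8.59 in the wild-type mice and 8.92, 8.90, 8.87 and 8.88 in the HdhQ150 mice. The groups did not overlap, with the HdhQ150 mice higher and close together, a pattern found for 2.2% of all genes. The difference was 0.15 (SE 0.0742, 95% interval 0.00 to 0.31) with an adjusted p of 0.857. Trem2 pointed the other way, at -0.16 (SE 0.0902, adjusted p 0.922), and 3 of its 4 HdhQ150 mice, at 7.84, 7.96 and 7.93, were under the wild-type mice at 8.37, 8.12 and 8.25, whereas mouse 383 at 8.29 and wild-type mouse WT-431 at 7.93 crossed over.

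Averaged over the ages, no member passed where 3.06% of all genes did, and none had an unadjusted p under 0.05, beside 14.2% of all genes. The average interval for Cx3cr1 was -0.11 to 0.04, for Trem2 -0.11 to 0.08 and for Tmem119 -0.05 to 0.09 on the log2 scale. Csf1r and P2ry12 both averaged 0.08 higher in HdhQ150 mice, with adjusted p of 0.373 and 0.554. Over the same ages all 7 projection neuron markers were lower in HdhQ150 mice past the threshold. Penk, an opioid peptide precursor of the indirect pathway, differed by -0.51 at 12 months and by -0.73 at 18 months (adjusted p 0.00118 and 0.00032). The astrocyte marker S100b averaged 0.36 higher and the oligodendrocyte marker Mog 0.21 higher in HdhQ150 mice (adjusted p 1.04e-05 and 0.0144 by limma). No other marker on the lists of these glial cells passed in that average.

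**Figure D2:**
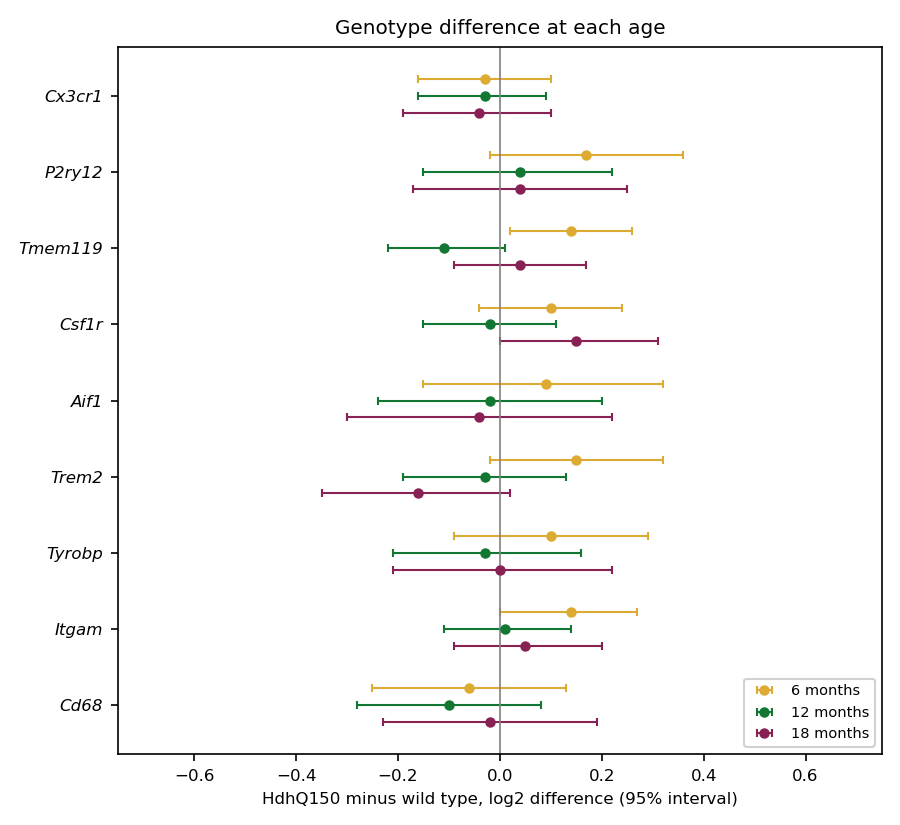
Log2 difference, HdhQ150 minus wild type, of each microglia marker gene at 6, 12 and 18 months, with 95% intervals from limma. At 6 months 7 of 9 points lie above 0 and at 12 months 7 of 9 below it, and none passed the adjusted threshold.

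Whether the genotype difference itself changed with age was tested next. From 6 to 12 months the estimates of the 9 members were at or below 0, from -0.24 for Tmem119 to -0.00 for Cx3cr1, with a median change of -0.124 beside -0.002 over all genes. None passed, beside 0.00502% of all genes (1 gene), and 1 of the 9 had an unadjusted p under 0.05, beside 6.51%. That gene was Tmem119, with a change of -0.24 (SE 0.0812, 95% interval -0.41 to -0.08, adjusted p 0.709). From 12 to 18 months no member and no gene of any kind passed by limma, with unadjusted p under 0.05 for 0 of the 9 and for 2.07% of all genes. From 6 to 18 months the count of genes past the threshold was again 0, and an unadjusted p under 0.05 was reached by 1 of the 9 and by 8.17% of all genes. Here the member was Trem2, at -0.31 (SE 0.122, 95% interval -0.56 to -0.06, adjusted p 0.608).

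Ages were then compared within each genotype. In wild-type mice Trem2 was the single member past the threshold, higher at 12 and at 18 than at 6 months. It read 7.86, 7.96, 7.85, 7.80 and 7.64 at 6 months, then 8.32, 7.97, 7.97, 7.98 and 7.94 at 12 months, and 8.37, 8.12, 8.25 and 7.93 at 18 months. The 12-month mice sat just above or inside the top of the 6-month range, apart from mouse WT-454 at 8.32, and 3 of the 4 mice of 18 months were above every mouse of 6 months.

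Trem2 was higher by 0.23 at 12 than at 6 months (SE 0.0816, 95% interval 0.07 to 0.40), a 1.18-fold difference with an adjusted p of 0.0345. In this comparison 25.7% of all genes passed, 13.1% of all genes on the higher side, so 1 of 9 members is no more than the background share. The call rested on mouse WT-454: without it the difference was 0.16 and the adjusted p 0.203. It was also lost without mouse WT-1002, WT-1018 or WT-1020 (adjusted p 0.0636, 0.0536 and 0.117), and with labelled females alone (0.20, adjusted p 0.163). Between 6 and 18 months the Trem2 difference was 0.39 (SE 0.0891, 95% interval 0.20 to 0.57), 1.31-fold, with an adjusted p of 0.01, in a comparison in which 6.27% of all genes passed, 3.32% on the higher side. Without mouse WT-400 it was 0.32 with an adjusted p of 0.0589, and without mice WT-454 and 1023 it was 0.36 with an adjusted p of 0.00943. The same age difference in HdhQ150 mice was 0.08 (SE 0.0865, adjusted p 0.729), and the test of the difference between genotypes is the Trem2 change of -0.31 given above, which did not pass.

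The other 8 members did not pass in wild-type mice, although the means of some, such as Aif1 and Itgam, also rose at both steps. Aif1 was higher by 0.27 at 18 than at 6 months (SE 0.125, adjusted p 0.193) and Tyrobp by 0.20 (SE 0.103, adjusted p 0.239), whereas Cd68 had a difference of -0.16 (SE 0.1, adjusted p 0.358). Between 12 and 18 months no member passed by limma, beside 5.87% of all genes, and 1 of the 9 had an unadjusted p under 0.05, beside 15.5% of all genes. This was Tyrobp, with a difference of 0.22 (SE 0.0998, adjusted p 0.278). The median of the 9 members was 0.055 for 12 against 6 months, 0.092 for 18 against 12 and 0.093 for 18 against 6, beside 0.035, -0.011 and 0.025 over all genes.

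In HdhQ150 mice P2ry12 and Tmem119 fell between 6 and 12 months, and Csf1r rose between 12 and 18 months. The other gene of the surveying state, Cx3cr1, had a difference of 0.09 between 6 and 12 months (SE 0.0615, adjusted p 0.304), on the opposite side from P2ry12 and Tmem119. Of the 9 members 7 were on the lower side at 12 against 6 months, with a median of -0.138 beside 0.036 over all genes, and 8 were on the higher side at 18 against 12 months, with a median of 0.117 beside -0.020. The medians of the members thus stood lowest at the middle age in this genotype.

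P2ry12 read 7.47, 7.42, 7.52, 7.18 and 7.34 in HdhQ150 mice of 6 months, and from 6.97 through a median of 7.12 to 7.27 at 12 months. All but mouse 1017 of the younger group lay above every older mouse. The difference was -0.27 (SE 0.0889, 95% interval -0.45 to -0.08), 1.2-fold, with an adjusted p of 0.0305. The call was lost when mouse 526, 1001, 1003 or 1016 was left out in turn, with adjusted p between 0.0736 and 0.0904. At 18 months the 4 mice read 7.34, 7.26, 7.15 and 7.12, between the younger groups.

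Tmem119 read 8.13, 8.25, 8.11, 8.10 and 8.22 at 6 months and from 7.86 through a median of 7.98 to 8.09 at 12 months. The groups did not overlap, and the older mice were lower; this held for 7.38% of all genes in that direction. The difference was -0.19 (SE 0.0555, 95% interval -0.30 to -0.07), 1.14-fold, with an adjusted p of 0.0152. Without mouse 526 the adjusted p was 0.0503, and without mouse 1003 it was 0.0697. In the comparison of 12 with 6 months 23.1% of all genes passed, 11.2% on the lower side, beside 2 of the 9 members, both lower, a share of members close to the background in all. With labelled females alone neither gene passed: P2ry12 then had a difference of -0.25 (adjusted p 0.109) and Tmem119 of -0.16 (adjusted p 0.0879). In wild-type mice the corresponding differences were -0.13 (adjusted p 0.286) for P2ry12 and 0.06 (adjusted p 0.471) for Tmem119. The difference between genotypes did not pass for either gene: it was -0.13 (adjusted p 0.905) for P2ry12, and the Tmem119 value stands above.

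Csf1r ranged from 8.45 through a median of 8.62 to 8.72 in the HdhQ150 mice of 12 months, and read 8.92, 8.90, 8.87 and 8.88 at 18 months. The older mice were all higher, as they were for 4.76% of all genes. The difference was 0.29 (SE 0.0698, 95% interval 0.14 to 0.43), 1.22-fold, with an adjusted p of 0.0106, and it stayed past the threshold whichever mouse was left out (adjusted p 0.00193 to 0.0405). Of all genes 5.79% passed in this comparison, 4.18% on the higher side, beside 1 of the 9 members. Tyrobp and Tmem119 were higher by 0.24 and 0.15 without passing (adjusted p 0.164 and 0.152). The Csf1r mice of 18 months also lay above all 5 HdhQ150 mice of 6 months, a pattern of 5.08% of all genes, with a difference of 0.15 (SE 0.0711, adjusted p 0.26). No member passed between 6 and 18 months in HdhQ150 mice, where 4.65% of all genes did, and Csf1r was the 1 member with an unadjusted p under 0.05, beside 18.5% of all genes. The wild-type Csf1r difference from 12 to 18 months was 0.11 (SE 0.0711, adjusted p 0.505), and the change of the genotype difference over that step was 0.17 (SE 0.0979, adjusted p 1).

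**Figure D3:**
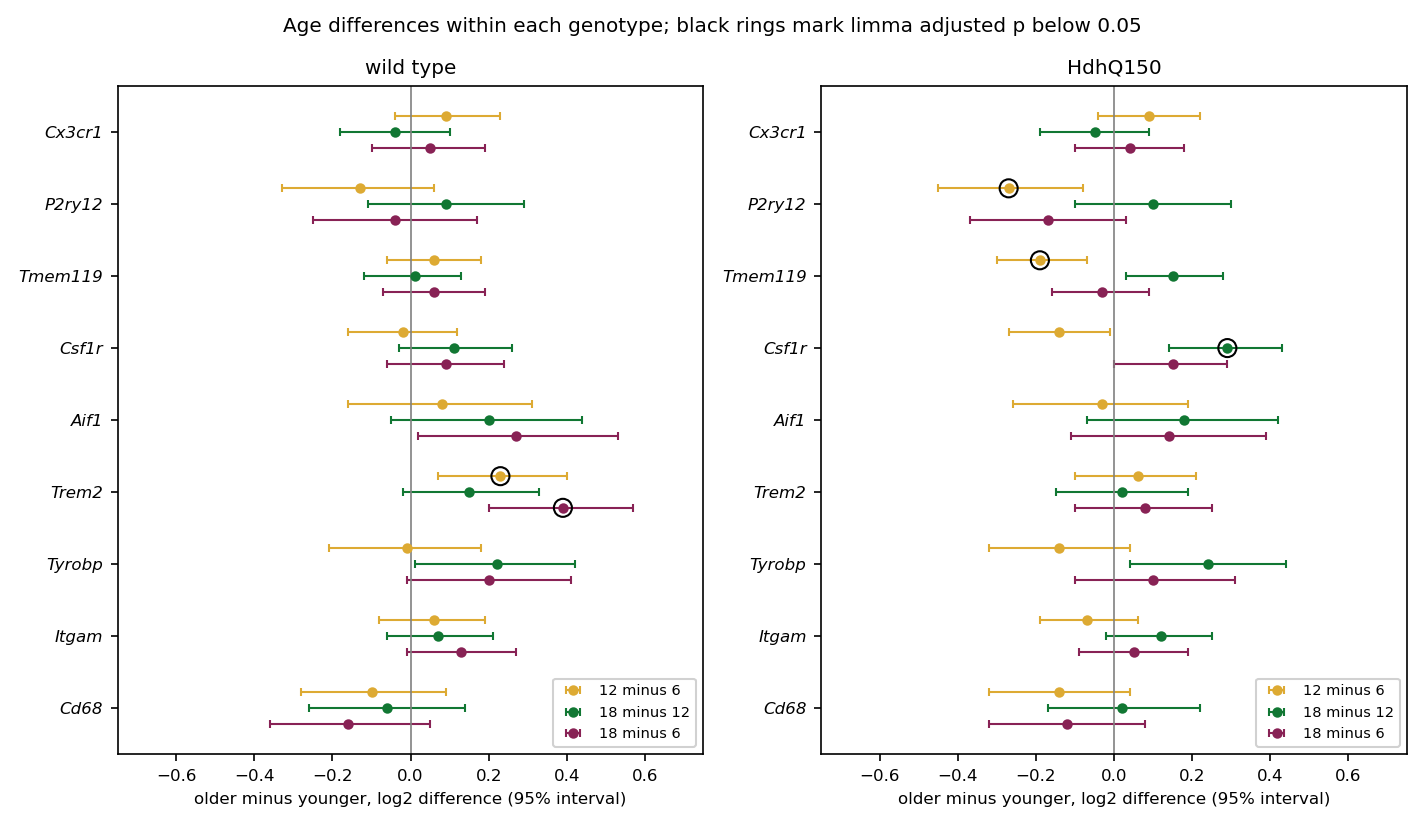
Log2 difference between ages, older minus younger, for each microglia marker gene in wild-type mice (left) and HdhQ150 mice (right), with 95% intervals from limma; black rings mark an adjusted p under 0.05. Rings stand on Trem2 in wild-type mice and on P2ry12, Tmem119 and Csf1r in HdhQ150 mice.

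Markers of other cells moved with the same steps in age. The 3 measured markers of cortical excitatory neurons, which are not native to the striatum, all fell from 6 to 12 months in both genotypes. In that step 25.7% of all genes passed in wild-type and 23.1% in HdhQ150 mice. Slc17a7, a vesicular glutamate transporter, had differences of -1.42 in wild-type mice (adjusted p 0.0209, and 0.0582 at most without mouse WT-488 or WT-508) and -2.44 in HdhQ150 mice (adjusted p 0.000167). From 12 to 18 months, beside 5.87% and 5.79% of all genes that passed, 2 of the 3 rose in wild-type and 3 of 3 in HdhQ150 mice. Their mean level in single mice ran from 8.39 to 9.44 in HdhQ150 mice of 6 months, from 5.79 to 8.37 at 12 months and from 8.64 to 9.62 at 18 months, so the HdhQ150 groups of 6 and 12 months did not overlap. In wild-type mice the ranges were 8.64 to 9.57, 6.99 to 8.89 and 8.56 to 9.85. Between genotypes at 12 months Slc17a7, Neurod6 and Tbr1 had differences of -1.03, -0.49 and -0.78. None passed (adjusted p 0.406, 0.819 and 0.434 by limma). Slc17a7 and Tbr1 had an unadjusted p under 0.05, beside 8.98% of all genes. The differences of the same genes were -0.02, -0.40 and -0.08 at 6 months and -0.18, -0.10 and -0.06 at 18 months.

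Projection neuron markers went the opposite way. At 12 against 6 months 6 of 7 rose in wild-type and 4 of 7 in HdhQ150 mice, beside 25.7% and 23.1% of all genes that passed. From 12 to 18 months, beside 5.87% and 5.79% of all genes, 7 of 7 fell in both. Their mean over HdhQ150 mice was 10.68, 11.01 and 10.24 at the successive ages, with ranges of 10.36 to 10.90, 10.85 to 11.11 and 10.05 to 10.53. Over wild-type mice it was 11.01, 11.46 and 10.81. Of the 7 astrocyte markers 3 fell in wild-type and 4 in HdhQ150 mice from 6 to 12 months, beside 25.7% and 23.1% of all genes that passed. Among them was Slc1a3, a glutamate transporter, at -0.40 and -0.50 (adjusted p 0.000139 and 4.57e-06). Gfap, the intermediate filament of reactive astrocytes, rose from 12 to 18 months by 0.95 in wild-type and 0.84 in HdhQ150 mice (adjusted p 0.000384 and 0.00118). The part of these shifts, and of the cortical marker differences between genotypes, in the results on microglial genes was not tested. That holds for Trem2, P2ry12, Tmem119 and Csf1r and for the other microglial genes given below.

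**Figure D4:**
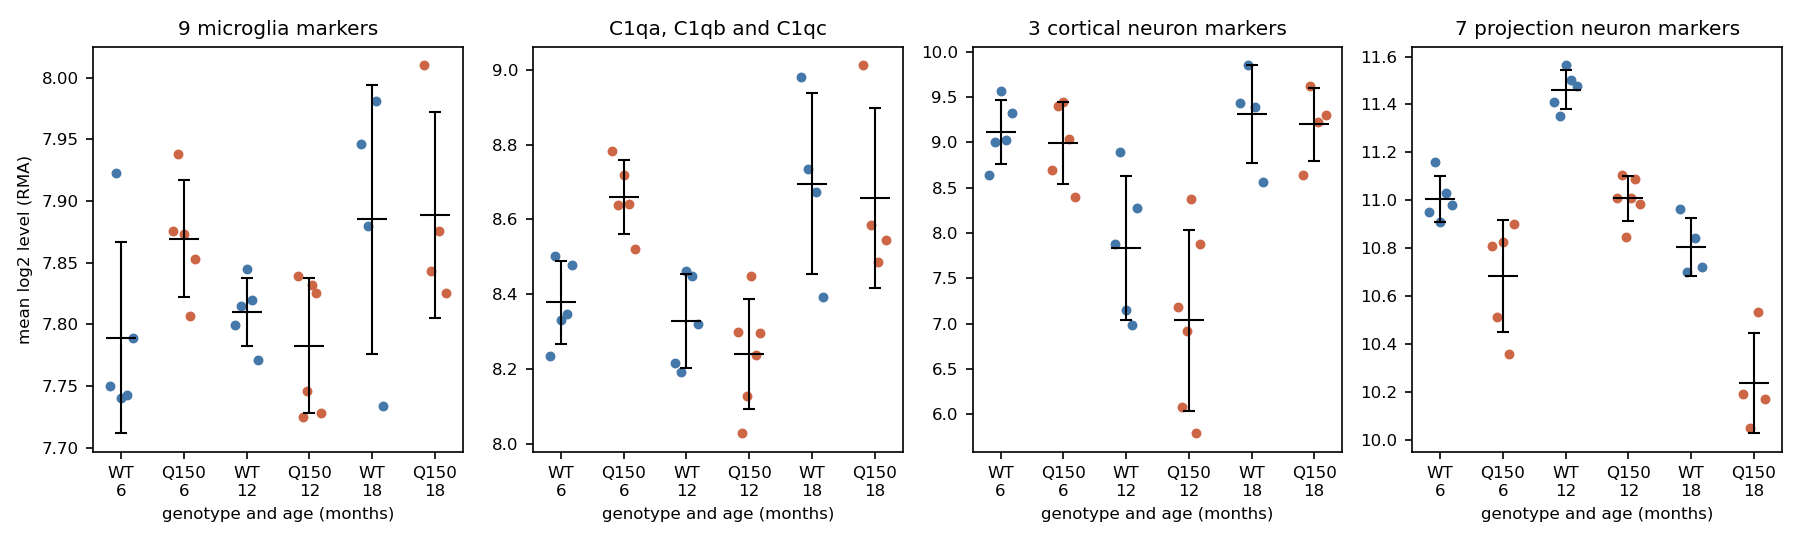
Mean log2 level per mouse (vertical axis, separate scales) of the 9 microglia markers, of C1qa, C1qb and C1qc, of 3 cortical neuron markers and of 7 striatal projection neuron markers, by genotype and age in months, with group mean and SD in black. The mean of the microglia markers stays between 7.72 and 8.01, whereas the cortical markers drop at 12 months to means of 7.84 in wild-type and 7.04 in HdhQ150 mice.

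Markers of macrophages at the brain's borders and of monocytes were measured in 9 genes, and Ccr2, a chemokine receptor of monocytes, was the sole one past the threshold in any comparison. It was higher by 0.37 in wild-type mice at 12 against 6 months (adjusted p 0.0128), and by 0.28 without mice WT-454 and 1023 (adjusted p 0.0876). The mean level of the list per mouse was 5.54 to 5.97 in wild-type mice of 12 months, with the other 5 groups between 5.54 and 5.78. Without passing, Cd163 and Plac8 lay higher at 12 than at 6 months in HdhQ150 mice with no overlap. Also with no overlap, Cd163 lay lower at 18 than at 12 months and Plac8 higher at 18 than at 6 months in these mice. Pf4 lay lower in HdhQ150 than in wild-type mice of 18 months in the same way. Of these patterns the share over all genes was counted for Plac8 between 6 and 18 months alone, at 5.08%. In the list of lymphocyte and neutrophil markers Cd4 rose from 6 to 12 months by 0.38 in wild-type mice and by 0.27 in HdhQ150 mice (adjusted p 0.00896 and 0.0465 by limma). It fell from 12 to 18 months by 0.48 and 0.70. Of all genes 25.7% and 23.1% passed at the first step and 5.87% and 5.79% at the second, in wild-type and HdhQ150 mice in turn. Averaged over the ages Cd4 had a difference of -0.25 between HdhQ150 and wild-type mice (adjusted p 0.0184 by limma), beside 3.06% of all genes that passed. It was lower at 18 than at 6 months in HdhQ150 mice, with a difference of -0.43, beside 4.65% of all genes. The latter call had an adjusted p of 0.0229 by limma, and 0.0938 at most without mouse 412, 426, 1001, 1016 or 1023. The lymphocyte markers Cd3e, Cd3g, Cd8a and Cd79a passed in neither comparison. Their differences were 0.02, -0.09, -0.05 and 0.09 in the average, and -0.02, 0.09, 0.01 and 0.09 at 18 against 6 months. Of the neutrophil markers S100a8 rose by 0.32 from 6 to 12 months in wild-type mice (adjusted p 0.0304 by limma), a call lost without mouse WT-454, WT-508, WT-1002 or WT-1020 (0.186 at most). S100a9 rose by 0.27 over the same step in HdhQ150 mice (adjusted p 0.0121 by limma). Its groups did not overlap, a pattern that was not counted over all genes on the higher side. The HdhQ150 rise of Cd4 was lost when any of 15 mice was left out (WT-488, WT-508, WT-527, WT-414, WT-1002, WT-1018, 451, 453, 464, 487, 526, 415, 426, 1003 and 1017), with an adjusted p of 0.249 at most. The part of Ccr2, Cd163, Plac8, Pf4, Cd4, S100a8 and S100a9 in the results on microglia markers was not tested. None of the 4 measured proliferation genes passed in any comparison by limma, and at most 1 had an unadjusted p under 0.05. The 5 endothelial and 5 choroid plexus markers did not pass in any comparison either, with at most 2 and 1 at an unadjusted p under 0.05. Of 5 oligodendrocyte markers 4 rose in HdhQ150 and 2 in wild-type mice from 6 to 12 months, beside 23.1% and 25.7% of all genes that passed. Alas2, the single blood marker measured, rose by 0.22 in wild-type mice over that step (adjusted p 0.026), a call lost without mouse WT-454, WT-527, WT-1002 or WT-1004 (0.0739 at most).

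The other genes of the microglial program were read from lists. For HdhQ150 against wild-type mice no gene passed at any age in the lists of other surveying-state genes (11 measured), lineage and survival factors (7), signalling partners (10), complement (6), disease-associated genes (15) and inflammatory genes (14). An unadjusted p under 0.05 at 6 months was reached by 4, 2, 2, 2, 1 and 0 genes of these lists in turn, at 12 months by 0, 0, 1, 0, 0 and 1, and at 18 months by 0, 0, 0, 1, 3 and 1. The share over all genes was 13.7%, 8.98% and 5.81% at these ages. The following genes were chosen after their values were seen. At 6 months Selplg, an adhesion ligand, was higher by 0.29 (SE 0.0864, adjusted p 0.16), Spi1 by 0.26 (SE 0.0823, adjusted p 0.167) and C1qb, a chain of the first complement component, by 0.39 (SE 0.133, adjusted p 0.191). C1qb stood at 9.06 ± 0.12 (SD, n = 5) in wild-type and 9.46 ± 0.13 (SD, n = 5) in HdhQ150 mice, without overlap, a pattern of 1.84% of all genes. Others lay on the lower side. Cd63, a lysosomal membrane protein of the disease-associated list, had a difference of -0.33 (SE 0.0944, adjusted p 0.139). Its groups did not overlap either, a pattern that was not counted over all genes on the lower side. Tgfbr1, a receptor for Tgfb1, had a difference of -0.25 (SE 0.119, adjusted p 0.358).

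From 6 to 12 months in HdhQ150 mice, some of these genes also fell, in a comparison in which 23.1% of all genes passed, 11.2% on the lower side. Of the other surveying-state genes 1 of 11 passed: P2ry13, another nucleotide receptor, fell by 0.33 (SE 0.078, adjusted p 0.00304), from 8.45 ± 0.14 (SD, n = 5) to 8.13 ± 0.12 (SD, n = 6), and the call held whichever mouse was left out (adjusted p 0.0238 at most). Of 7 lineage and survival factors 3 fell: Spi1 by 0.27, Tgfb1, a cytokine that maintains microglial identity, by 0.24, and Il34, a ligand of Csf1r made by neurons, by 0.21 (adjusted p 0.0134, 0.0136 and 0.017). Spi1 and Il34 lost the call without mouse 526 and mouse 1016 respectively (adjusted p 0.0536 and 0.0645). Of 10 partners 2 fell, Fcer1g, a signalling adaptor related to Tyrobp, by 0.41 (adjusted p 0.000451) and Inpp5d, a lipid phosphatase, by 0.17 (adjusted p 0.038). Inpp5d lost the call when any of 8 mice (453, 462, 487, 526, 1001, 1003, 1016 and 1023) was left out, with an adjusted p of 0.11 at most.

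Of the 6 complement genes 2 fell and 1 rose from 6 to 12 months in HdhQ150 mice, and 3 rose from 12 to 18 months, beside 23.1% and 5.79% of all genes. C1qb and C1qc fell by 0.64 and 0.46 from 6 to 12 months in HdhQ150 mice (adjusted p 0.000558 and 0.00131) and rose by 0.53 and 0.47 from 12 to 18 months (adjusted p 0.0182 and 0.00647), the C1qb rise being lost without mouse 383 (adjusted p 0.105). C1qb also rose by 0.51 from 12 to 18 months in wild-type mice (adjusted p 0.0257), a call lost without mouse WT-461, WT-527, WT-400, WT-401 or WT-414 (0.165 at most). C4b, a complement component also made by astrocytes and oligodendrocytes, rose at every step in both genotypes, by 0.47 and 0.71 in wild-type and 0.51 and 0.36 in HdhQ150 mice. The last of these had an adjusted p of 0.0363 and was lost without mouse 462, 464, 487, 526, 383, 415 or 426 (0.136 at most). Its levels went from 7.61 ± 0.06 (SD, n = 5) through 8.09 ± 0.23 (SD, n = 5) to 8.80 ± 0.30 (SD, n = 4) in wild-type mice. Spi1 rose by 0.31 from 12 to 18 months in HdhQ150 mice (adjusted p 0.0247), a call lost without mouse 462, 526, 383, 412 or 415 (0.0932 at most).

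In wild-type mice from 6 to 12 months 25.7% of all genes passed, 13.1% on the higher side. Irf8, a transcription factor of microglia, rose by 0.28 (adjusted p 0.00402), whereas 2 of 10 partners fell, among them Fcer1g by 0.30 (adjusted p 0.00933). Of the disease-associated genes 2 of 15 rose and 3 fell. Cst7 and Itgax, genes of microglia around damage, rose by 0.34 and 0.35, and both lost the call without mouse WT-454 (adjusted p 0.0742 and 0.0614). Apoe, a lipid carrier made mainly by astrocytes, fell by 0.22 (adjusted p 0.021, and 0.0649 at most without mouse WT-461, WT-1018 or WT-1020) and Cd63 by 0.40 (adjusted p 0.003). Of the inflammatory genes 3 of 14 rose, Il1b, Cybb and Tlr4, and none of the 3 passed without mouse WT-454. Il1b also lost its call without mouse WT-527, WT-1002, WT-1004, WT-1018 or WT-1020 (0.205 at most) and Tlr4 without mouse WT-508 or WT-1018 (0.0774 at most). From 6 to 18 months Itgax was higher by 0.45 (adjusted p 0.0148) and the chemokine Ccl3 by 0.43 (adjusted p 0.0149). Itgax lost this call without mouse WT-414 or WT-1020 (0.0641 at most), and Ccl3 without mouse WT-400 or WT-414 (0.062 at most). Over the same span Apoe fell by 0.26 and Irf8 rose by 0.25 (adjusted p 0.0412 and 0.0417). Apoe lost its call without mouse WT-400, WT-401, WT-414, WT-431, WT-1002, WT-1018 or WT-1020 (0.113 at most), and Irf8 without mouse WT-400, WT-401, WT-414, WT-1002, WT-1004, WT-1018, WT-1020 or 1003 (0.144 at most). Of all genes 6.27% passed.

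In HdhQ150 mice 1 of 15 disease-associated genes rose and 1 fell from 6 to 12 months, and 2 of 14 inflammatory genes rose and 1 fell, beside 23.1% of all genes that passed. From 12 to 18 months 1 of 15 rose, 1 fell and 0 of 14 passed (1 of 14 at an unadjusted p under 0.05), beside 5.79%, and from 6 to 18 months 1 of each list rose, beside 4.65%. From 6 to 12 months Lpl, a lipase, rose by 0.50 and Apoe fell by 0.28 (adjusted p 0.00371 and 0.00305). In the same step the inflammatory genes Cybb and Cd14 rose by 0.27 and 0.20, whereas Ptgs2, an enzyme of prostaglandin synthesis that neurons also express, fell by 0.73 (adjusted p 0.00482). Cybb (adjusted p 0.0306) lost its call without mouse 453, 526, 1001, 1003 or 1016 (0.0903 at most), and Cd14 (adjusted p 0.0434) without any of these or mouse 462 or 1017 (0.136 at most). From 12 to 18 months Lpl fell by 0.70 (adjusted p 0.00127) and Axl, a receptor for dying cells, rose by 0.20 (adjusted p 0.0309, and 0.134 at most without mouse 462, 526, 412, 415 or 426). Between 6 and 18 months Ctss, a lysosomal protease, was higher by 0.43 and Ccl3 by 0.39 (adjusted p 0.0188 and 0.0248). Ctss lost the call without mouse 415, 1001 or 1016 (0.0641 at most) and Ccl3 without mouse 412, 415, 426, 1001 or 1016 (0.0935 at most).

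Within the groups the 9 genes differed in how steady they were. The pooled SD between mice of a group was 0.079 for Tmem119, smaller than for all but 5.0% of genes, and 0.201 for Aif1, with 84.8% of genes below it. Itgam, Cx3cr1 and Csf1r followed Tmem119 at 0.085, 0.095 and 0.099. Trem2 stood at 0.134, P2ry12 and Cd68 at 0.147 and Tyrobp at 0.157, around the median of 0.144 over all genes.

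Deviations of each mouse from its group mean, not adjusted for sex, were compared between members over the 29 mice. They are a description without a test, since all values of a mouse come from 1 array. Of 36 pairs 26 had a Pearson correlation above 0, 5 had at least 0.5 and the median was 0.28. Trem2 and its adaptor Tyrobp had the highest, with r = 0.72 and rho = 0.61, and r = 0.57 without the 2 mice farthest from the median. Csf1r and Itgam had r = 0.69 and rho = 0.68 (0.63 without the 2 farthest), and P2ry12 and Csf1r had r = 0.68 and rho = 0.69 (0.70 without them). Without mice WT-454 and 1023 these 3 pairs had r of 0.74, 0.65 and 0.67. Tyrobp and Cd68 had r = 0.50, which fell to 0.20 without the 2 farthest mice.

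**Figure D5:**
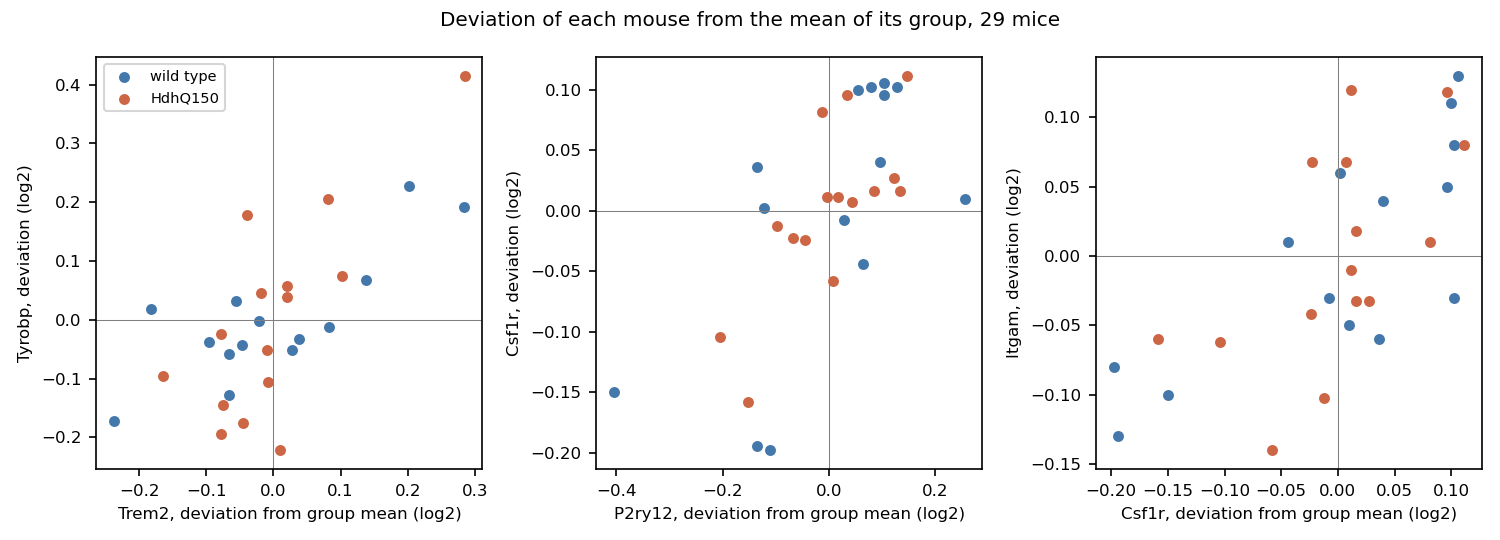
Deviation of each of 29 mice from the mean of its group (log2) for Tyrobp against Trem2, Csf1r against P2ry12 and Itgam against Csf1r; each point is 1 mouse, blue for wild type and orange for HdhQ150. The points run from lower left to upper right, with r of 0.72, 0.68 and 0.69.

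Aif1 had the lowest correlation with the rest of the set. Its deviations had r = -0.08 with the mean of the other 8 members, where Csf1r had 0.55, P2ry12 0.52, Tyrobp 0.51, Trem2 0.47, Itgam 0.40, Cd68 0.38, Tmem119 0.35 and Cx3cr1 0.34. The lowest pair of all was Aif1 with Cd68, at r = -0.29, whereas Aif1 had r = 0.30 with Tmem119 and 0.29 with Trem2. Aif1 also had the widest spread of the members within groups, at 0.201. The part of that spread in its correlations was not tested.

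Over all other genes, the 10 whose deviations were most like the mean of the 9 members over 29 mice were Igsf11, Coro7, Spi1, Clptm1, C1qb, Fuom, Mfap3l, Kcnip3, Tdrp and Sorcs2, with r from 0.79 down to 0.69. Of these, Spi1 and C1qb are on the lists of microglial genes. Spi1 had r = 0.74 and rho = 0.76, and r = 0.67 without mice WT-431 and WT-1004, which lay farthest out. C1qb had r = 0.72 and rho = 0.66, and r = 0.64 without those mice. Igsf11, an adhesion molecule of the immunoglobulin superfamily, led with r = 0.79 and rho = 0.73, and r = 0.71 without them. These correlations describe the arrays at hand and are the highest of many.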

How the data were processed

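Total RNA of the caudate nucleus of 29 mice was labelled with biotin and hybridised to 1 array per mouse, per the labels. The authors deposited log2 levels from RMA, run in Affymetrix Expression Console per the submitters' processing notes, with no version or option stated there. Of 35556 probe sets 21789 carried 1 gene symbol in the platform annotation, 1621 several and 12146 none. Several probe sets of a gene were reduced to the one with the highest mean, leaving 19938 genes. These were fitted with limma 3.58.1 in R 4.3.3 (6 group means, a term for labelled sex, eBayes with trend, 22 residual degrees of freedom), two-sided, with Benjamini-Hochberg adjustment over all genes. The script was tested on simulated data. Array number limits the precision. Each mouse is a separate animal by its number.

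Named were the 9 members, up to 4 genes per comparison from each of 16 other lists (those past the threshold first), and the 10 genes most like the members' mean. Some genes of the lists were not analysed here. Members, lists and tests were chosen with earlier results of these data known. Alternatives covered probe set choice, sex term, labelled females alone, brighter genes, array weights, moderation, centring, the arrays fitted and each mouse left out.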

Additional observations from a re-analysis of the deposited data

Results flagged for a closer look

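Of 60 groups of 4 to 6 mice examined for a value far from the rest (10 measures in 6 groups), 4 held one; chance gives about 1 in 20 groups. Aif1 was 6.78 in wild-type mouse WT-414 of 18 months, where the other 3 lay between 6.37 and 6.41. Trem2 was 8.32 in wild-type mouse WT-454 of 12 months, against 7.94 to 7.98 in the other 4, and without this mouse the Trem2 call between 6 and 12 months was lost. Tyrobp was 8.77 in HdhQ150 mouse 383 of 18 months, against 8.18 to 8.26. The mean of the 9 members was 7.92 in wild-type mouse WT-1004 of 6 months, against 7.74 to 7.79.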

How the results depend on the processing

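The count of members past the threshold stayed at 0 in every genotype comparison, and in every change of the genotype difference, under all alternatives run. Over single mice left out, the median genotype difference of the members ranged from 0.086 to 0.149 at 6 months, from -0.051 to -0.001 at 12 months and from -0.055 to 0.065 at 18 months. For Trem2 in wild-type mice, 12 against 6 months, the count of 1 became 0 without the sex term (0.21, adjusted p 0.061), with labelled females alone, with array weights (0.15, adjusted p 0.12) and without mice WT-454 and 1023, and ranged from 0 to 1 over single mice left out. For 18 against 6 months in wild type it became 0 with only the groups compared (0.40, adjusted p 0.0687) and ranged from 0 to 1 over single mice. For 18 against 12 months in wild type it became 1 with array weights (Trem2, 0.23, adjusted p 0.033), and the median of the members ranged from 0.055 to 0.165 over single mice, the highest without mouse WT-431. For 12 against 6 months in HdhQ150 mice the count of 2 became 0 with labelled females alone and ranged from 0 to 2 over single mice; with array weights Csf1r joined (-0.15, adjusted p 0.0299). The causes of these changes were not tested. Fits that left mice out also had fewer arrays. Over all genes the calls at 6 months between genotypes went from 5 to 868 without mice WT-454 and 1023 and to 1330 with array weights. No paired analysis was possible because no mouse or replicate number is shared between groups.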
